A study of Homo sapiens with 8 samples.

Results

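In HT cells, 12629 H3K27me3 islands were narrow, lay on autosomes and met neither an H3K27me3 nor an H3K4me3 island of SUDHL6. They made up 74.6% (95% interval 74.0 to 75.3%) of the 16919 islands in the HT H3K27me3 list and 76.6% (76.0 to 77.3%) of its 16481 narrow autosomal islands. An island is a stretch of enriched windows called by the authors. Narrow means below 10000 bp, and an overlap of 1 bp counted. The islands were chosen by the calls of 3 lists, HT H3K27me3, SUDHL6 H3K27me3 and SUDHL6 H3K4me3, so their absence from the SUDHL6 lists is the choice itself and not a result. They are called HT-only islands here in that sense, since an uncalled island does not show that the mark was absent.

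HT and SUDHL6 are established human cell lines from diffuse large B cell lymphoma, an aggressive cancer of B lymphocytes. They were grown without treatment. Chromatin immunoprecipitation with sequencing was done for H3K27me3, EZH2 and H3K4me3 in both, with 1 library for each line and antibody. The labels do not give the EZH2 genotype of either line, and SUDHL6 is known to carry an activating mutation in the catalytic domain of EZH2. With no replicate, no test between lines or between classes of islands was made. Shares are given with 95% intervals by the exact method of Clopper and Pearson, and these cover counting error only. Neighbouring islands share their region and library, so they are not replicates.

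Polycomb repressive complex 2 places methyl groups on lysine 27 of histone H3, and EZH2 is the subunit that carries out the reaction. The trimethylated form, H3K27me3, marks repressed chromatin, and the complex is recruited above all to CpG-rich promoters, from where the mark can spread over long stretches. H3K4me3 marks active or poised promoters, and promoters with both marks are known as bivalent. In germinal centre B cells and in lymphomas that arise from them, EZH2 holds differentiation and cell cycle genes repressed.

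The HT-only islands were the bulk of the mark in HT by number and less so by length. They covered 33.7 Mb, which was 61.9% of the 54.4 Mb in the HT H3K27me3 list and 69.2% of the 48.6 Mb in its narrow autosomal islands. The other narrow autosomal islands were 3384 over SUDHL6 H3K27me3, called shared islands below, and 468 over SUDHL6 H3K4me3 without SUDHL6 H3K27me3. The lists differed in length, with 16919 H3K27me3 islands in HT and 13159 in SUDHL6, and with 10914 H3K4me3 islands in HT and 13736 in SUDHL6. The sources used here give no read depth, so depth, calling and cell line cannot be told apart.

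HT-only islands were narrower and carried a lower score per kb than the other narrow islands of the same list. The rule bears on width, since a wider island has more room to meet a SUDHL6 island by 1 bp. The score is the authors' own value per island. The sources used here do not say what it counts, and it is compared within the HT H3K27me3 list alone. The median width was 2250 bp (quartiles 1500 and 3450 bp) for HT-only islands, 2850 bp (1800 and 4350 bp) for islands over SUDHL6 H3K4me3 only and 3600 bp (2400 and 5100 bp) for shared islands. Of the HT-only islands, 998 (7.90%) were below 1 kb, 4349 (34.4%) measured 1 to 2 kb, 6186 (49.0%) measured 2 to 5 kb and 1096 (8.68%) measured 5 to 10 kb. Among the shared islands, those of 5 to 10 kb were 26.8%. The median score per kb was 19.4 (17.1 and 22.5) for HT-only islands, 23.9 (20.5 and 28.6) for islands over SUDHL6 H3K4me3 only and 21.2 (18.8 and 25) for shared islands.

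Against shared islands, the lower score per kb was seen within each of the 4 width classes. Among islands of 2 to 5 kb the median was 18.6 for HT-only islands and 20.7 for shared islands, and among those of 5 to 10 kb it was 19.4 and 21.4. In the class of 1 to 2 kb the medians were 20 and 21.8, and below 1 kb they were 26.7 and 27.8. Islands below 1 kb over SUDHL6 H3K4me3 only, of which there were 15, had the same median as HT-only islands, 26.7. The narrowest islands thus had the highest score per kb in both classes. The lowest score in the HT H3K27me3 list was 11, so the least possible score per kb rises as islands get narrower. The HT-only medians of width and of score per kb were lower than those of shared islands on 22 of 22 autosomes. The rule bears on the order of width on each autosome.

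**Figure D1:**
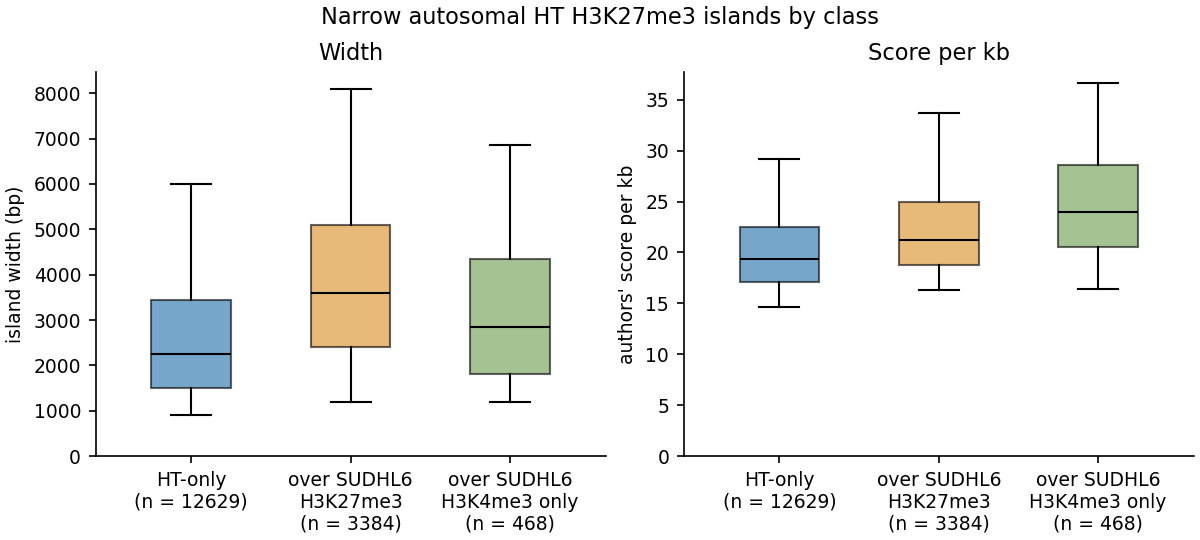
Width (left, bp) and the authors' score per kb (right) of narrow autosomal HT H3K27me3 islands in 3 classes. Boxes span the quartiles with the median as a line, and whiskers reach the 5th and 95th percentiles. HT-only islands have the lowest median in both, 2250 bp and 19.4.

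At the limit of the rule, 8 HT-only islands measured 9900 bp, and outside it 9 of the 160 wider autosomal islands without SUDHL6 H3K27me3 or H3K4me3 measured 10050 bp. The first 3 inside the limit by position (hg19) were on chromosome 11, at 112673851 to 112683750, 115005301 to 115015200 and 115595701 to 115605600, with 24.6, 27.7 and 25.4 score units per kb. The first 3 outside it lay on chromosome 1 from 110989201 to 110999250, on chromosome 8 from 22532251 to 22542300 and on chromosome 10 from 102507601 to 102517650, with 22.4, 23.7 and 22.8 per kb. Of the 8 islands of 9900 bp, the first 5 by position were named, and HT EZH2 met none of these. The other 2 of the 5 were on chromosome 12, at 6134701 to 6144600 and 54809101 to 54819000.

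The highest score per kb, 82.7, belonged to an island of 750 bp on chromosome 1 from 2633551 to 2634300, whose score was 62. The next 4 were single windows of 150 bp with scores of 11 or 12, on chromosomes 5, 10, 15 and 18, where 1 score unit more or less moves the value per kb far. None of the 5 met EZH2 of either line. The lowest values, 10.2, 10.6 and 10.7 per kb, belonged to islands of 2550 to 2700 bp on chromosomes 8, 9 and 7.

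The edge of the rule towards SUDHL6 was not sharp. Of the HT-only islands, 64 touched a SUDHL6 H3K27me3 or H3K4me3 island without overlap and 543 (4.30%) lay within 1 kb of one. Of the 3852 other narrow islands, 74 met such an island over only 150 bp and 652 (16.9%) over less than 1 kb. The median distance of HT-only islands to the nearest SUDHL6 H3K27me3 island was 54.8 kb (quartiles 12.6 and 270.8 kb).

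EZH2 of the same line was called over few HT-only islands. HT EZH2 met 536 of them, or 4.24% (3.90 to 4.61%), while over all 16481 narrow autosomal islands the share was 7.37%. It met 53.6% (49.0 to 58.2%) of the islands over SUDHL6 H3K4me3 only and 12.6% (11.5 to 13.8%) of the shared islands, or 10.9% (9.86 to 12%) of the shared islands without SUDHL6 H3K4me3. The share depended on the list: among the highest 50% of HT H3K27me3 islands by score, HT EZH2 met 7.76% of HT-only islands. In that setting it met 15.7% of the 2578 shared islands. The HT-only share was below that of shared islands on 22 of 22 autosomes. The median width and score per kb of HT-only islands were also the lower on all 22. The autosomes share their libraries, and some held few shared islands, with 17 on chromosome 4, 26 on 13 and 29 on 21. From the side of the enzyme, 508 of 2508 autosomal HT EZH2 islands, or 20.3% (18.7 to 21.9%), touched an HT-only island. An HT EZH2 island lay within 10 kb of 8.08% (7.61 to 8.57%) of HT-only islands and of 19.0% (17.7 to 20.3%) of shared islands, and within 100 kb of 28.4% and 44.7%.

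Part of this gap went with width and score. Among HT-only islands, HT EZH2 met 1.20% (0.623 to 2.09%) below 1 kb, 2.09% (1.69 to 2.56%) from 1 to 2 kb, 5.38% (4.83 to 5.97%) from 2 to 5 kb and 9.12% (7.49 to 10.99%) from 5 to 10 kb. Among shared islands the shares were 1.12%, 5.39%, 10.9% and 21.6% in the same order of width. All narrow islands were also put into 4 score classes of like size, bounded at 17.5, 20 and 23.2 per kb. The HT-only share with HT EZH2 was 1.31% (0.966 to 1.74%) in the lowest class, 2.04% and 3.93% in the next ones, and 11.2% (10.0 to 12.4%) in the highest. The shared islands had 0.959%, 2.86%, 7.94% and 27.4%.

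When both properties were held alike, most of the gap was gone. Shared islands weighted to the widths of HT-only islands had HT EZH2 in 9.14%, and weighted to their score classes in 8.81%. In the 13 of 16 combinations of width class and score class that held at least 20 islands of both classes, HT-only islands had HT EZH2 in 4.29% and shared islands, weighted to the HT-only counts, in 5.43%. HT-only islands had the lower share in 9 of these 13 combinations and the higher in 4. The shared islands here keep 131 that also lie over SUDHL6 H3K4me3, of which 55.7% met HT EZH2. The rule removed such islands from the HT-only class. In the widest and densest combination, 63 of 222 HT-only islands (28.4%) and 150 of 328 shared islands (45.7%) met HT EZH2. The islands over SUDHL6 H3K4me3 only differed far more, with 36.1% after weighting by both properties.

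**Figure D2:**
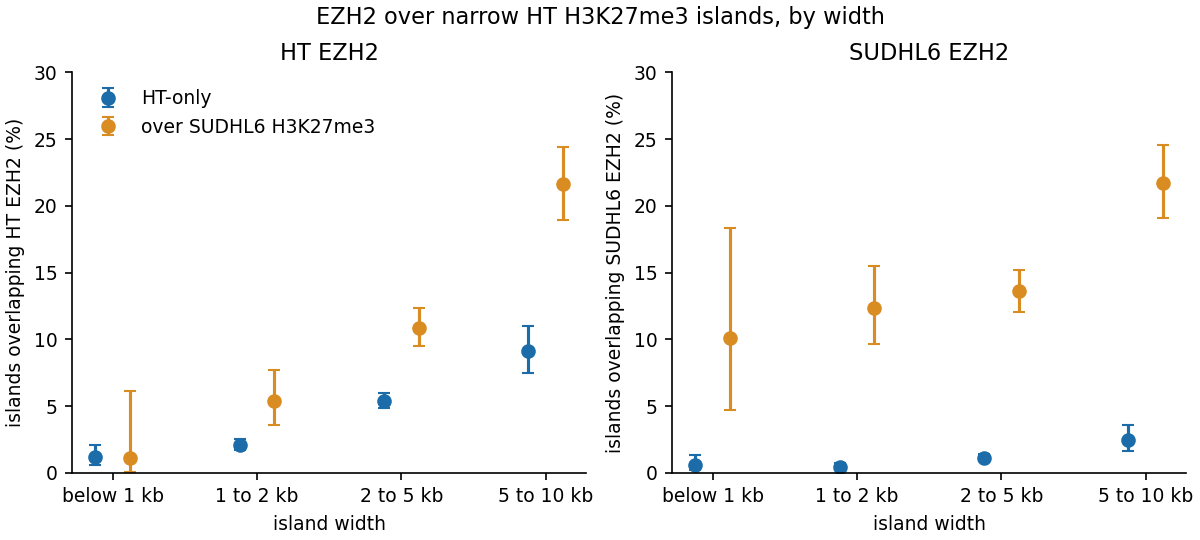
Share of narrow HT H3K27me3 islands that overlap an EZH2 island of HT (left) or SUDHL6 (right), in percent, by width class, for HT-only islands and shared islands. Points are shares and bars exact 95% intervals. HT EZH2 reaches 9.12% of HT-only and 21.6% of shared islands at 5 to 10 kb, and SUDHL6 EZH2 reaches 2.46% and 21.7%.

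HT-only islands with HT EZH2 were wider, higher in score per kb and nearer to HT H3K4me3 islands than those without. Their median width was 3225 bp, against 2250 bp for the 12093 without. Their median score per kb was 23.9, against 19.3 without, and their median distance to HT H3K4me3 was 68.4 kb, against 125.0 kb without. EZH2 covered a median of 77.0% of the island (quartiles 53.0 and 100%), and 148 of the 536 were covered in full. The 5 widest measured 9.45 to 9.75 kb. HT EZH2 covered 44.6% of the island on chromosome 4 from 153595501 to 153605250, 46.9% of that on chromosome 10 from 6097801 to 6107400 and 76.6% of that on chromosome 14 from 105122401 to 105132000. It covered 31.7% of the island on chromosome 1 from 113043751 to 113053200 and 44.4% of that on chromosome 12 from 54337351 to 54346800. SUDHL6 EZH2 and HT H3K4me3 met none of these 5.

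SUDHL6 EZH2 met 121 HT-only islands, or 0.958% (0.796 to 1.14%), against 4.11% of all narrow autosomal islands. It met 6.84% (4.72 to 9.52%) of the islands over SUDHL6 H3K4me3 only and 15.5% (14.3 to 16.7%) of the shared islands. EZH2 and H3K27me3 go together within a line, so the rule, which removed SUDHL6 H3K27me3, bears on this share. Shared islands weighted to the width and score classes of HT-only islands had SUDHL6 EZH2 in 10.7%. The HT-only share was below that of shared islands on 22 of 22 autosomes. The weighting and the count by autosome keep the same choice of islands, so the rule bears on both.

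EZH2 of both lines met 33 HT-only islands, which were 6.16% (4.28 to 8.54%) of those with HT EZH2 and 27.3% (19.6 to 36.1%) of those with SUDHL6 EZH2. SUDHL6 EZH2 met 88 of the 12093 HT-only islands without HT EZH2 (0.728%). The widest of the 33 lay on chromosome 19 from 14490001 to 14497200 (7.20 kb). HT EZH2 covered 72.9% and SUDHL6 EZH2 all of it, and the nearest SUDHL6 H3K27me3 island was 7.35 kb away. The widest with SUDHL6 EZH2 alone lay on chromosome 12 from 54809101 to 54819000 (9.90 kb), where SUDHL6 EZH2 covered 57.6% and SUDHL6 H3K27me3 began 1.05 kb away. The next 2 by width, on chromosome 20 from 44944201 to 44952600 and on chromosome 1 from 20810101 to 20817900, were covered by SUDHL6 EZH2 over 10.7% and 9.62% and lay 0.60 and 0.15 kb from SUDHL6 H3K27me3.

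With distance from SUDHL6 H3K27me3, the shares with EZH2 of the 2 lines differed in opposite directions between near and far islands. The distance is to a list that the rule used. EZH2 and H3K27me3 go together within a line, so this choice bears on the SUDHL6 EZH2 shares. SUDHL6 EZH2 met 3.02% (2.26 to 3.96%) of the 1686 HT-only islands within 5 kb of SUDHL6 H3K27me3 and 0.310% (0.0845 to 0.791%) of the 1291 islands 1 Mb or farther from it. HT EZH2 met 3.68% (2.83 to 4.69%) of the near islands. It met 7.36% (5.99 to 8.92%) of the far islands, close to its 7.37% of all narrow autosomal islands. Between these limits its share was 3.84% at 5 to 20 kb, 3.49% at 20 to 100 kb and 4.39% at 100 kb to 1 Mb. The far islands were the narrower, with a median of 1950 bp against 2550 bp for the near, and the lower in score per kb, with 19.2 against 20 for the near. They lay on 20 of the 22 autosomes, with most on chromosome 5 (190), and without chromosome 5 the share with HT EZH2 was 7.36% as well (81 of 1101).

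Few HT-only islands met H3K4me3 of HT. The rule bears on this, because it removed the islands with SUDHL6 H3K4me3. HT H3K4me3 met 77, or 0.610% (0.481 to 0.761%), where all narrow autosomal islands had 2.0%. It met 33.8% of the islands over SUDHL6 H3K4me3 only and 2.78% (2.25 to 3.39%) of the shared islands. Among the 3253 shared islands that also lacked SUDHL6 H3K4me3, the share was 1.51% (1.12 to 1.99%). The HT-only share was lower than that of all shared islands on 20 of 22 autosomes and higher on chromosomes 9 and 11. Where HT H3K4me3 was present, HT EZH2 was frequent, at 27 of 77 islands or 35.1% (24.5 to 46.8%), against 4.06% (3.72 to 4.42%) of the other 12552. The 3 widest of the 77 lay on chromosome 10 from 71456851 to 71465700, on chromosome 1 from 149688601 to 149697300 and on chromosome 11 from 110288551 to 110296950, with 10.2%, 22.4% and 12.5% of their length under HT H3K4me3. HT EZH2 was called over the first, on 27.1% of its length.

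The median distance from an HT-only island to the nearest HT H3K4me3 island was 122.6 kb (quartiles 53.6 and 241.8 kb). It was 35.6 kb for islands over SUDHL6 H3K4me3 only and 70.4 kb (28.2 and 148.7 kb) for shared islands. These classes keep islands over SUDHL6 H3K4me3, which the rule removed from the HT-only islands. The shared islands without SUDHL6 H3K4me3 had a median of 72 kb (30.2 and 150.8 kb). Within 10 kb of HT H3K4me3 lay 5.42% (5.03 to 5.83%) of HT-only islands and 11.4% (10.4 to 12.5%) of shared islands, and within 100 kb 43.1% and 61.4%. The HT-only median was the longer on 21 of 22 autosomes, and on chromosome 18 it was 141.3 kb for HT-only and 406.1 kb for shared islands. To the nearest SUDHL6 H3K4me3 island, from a longer list, the HT-only median was 104.0 kb. An island of SUDHL6 was the nearer for 51.3% of HT-only islands, one of HT for 43.0%, and 5.75% lay at the same distance.

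**Figure D3:**
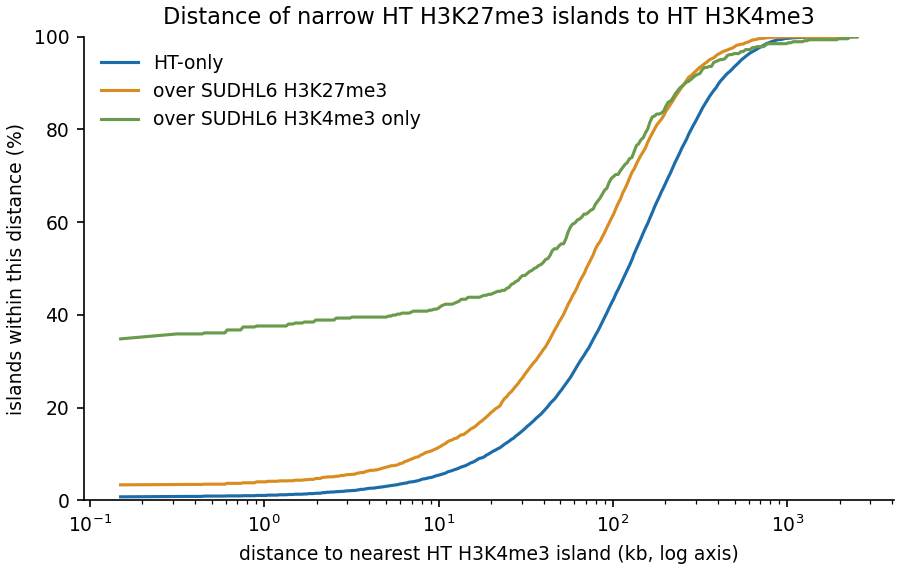
Cumulative share of narrow HT H3K27me3 islands (percent) within a given distance (kb, log axis) of the nearest HT H3K4me3 island, for 3 classes. The HT-only curve runs lowest up to 100 kb, where it reaches 43.1%, against 61.4% for shared islands.

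The median distance to the next HT H3K27me3 island of any kind was 10.8 kb (quartiles 2.70 and 37.2 kb), and 34.5% (33.7 to 35.3%) had one within 5 kb. Islands over SUDHL6 H3K4me3 only had a median of 27.5 kb and 25% (21.1 to 29.2%) within 5 kb. Shared islands had a median of 5.70 kb and 47.2% (45.5 to 48.9%) within 5 kb. HT-only islands were thus between the other classes. Few HT-only islands flanked a broad domain, with 6.59% (6.16 to 7.03%) within 100 kb of 1 of the 370 autosomal HT islands of 10 kb or wider. The share was 4.27% (2.63 to 6.52%) for islands over SUDHL6 H3K4me3 only, 14.2% (13 to 15.4%) for shared islands and 8.08% over all narrow islands.

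Many HT-only islands followed one another in runs, taken as neighbours at most 50 kb apart with no other HT H3K27me3 island between them. There were 3566 islands in no run, 5439 in runs of 2 to 4 members and 3624 (28.7%) in 493 runs of 5 or more. Runs of 10 or more numbered 88 and held 1098 islands. Of the 3566 in no run, 1038 had an HT H3K27me3 island that is not HT-only within 50 kb, and 2528 had no HT H3K27me3 island within 50 kb. HT EZH2 met 5.97% (5.22 to 6.80%) of the islands in no run, 4.14% (3.62 to 4.70%) of those in runs of 2 to 4 members and 2.70% (2.20 to 3.29%) of those in runs of 5 or more. In runs of 10 or more it met 20 islands, or 1.82% (1.12 to 2.80%). Among the islands in no run, the share was 6.84% (5.38 to 8.55%) with another HT H3K27me3 island within 50 kb and 5.62% (4.75 to 6.59%) with none. EZH2 was thus called least often in the longest runs of HT-only islands.

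Width was greater in runs, and the median score per kb differed by little. The median width was 2100 bp for islands in no run, 2250 bp in runs of 2 to 4 members and 2550 bp in runs of 5 or more, and the median score per kb was 19.3, 19.4 and 19.4. Among islands of 2 to 5 kb, HT EZH2 met 8.52% (7.21 to 9.99%), 4.75% (3.97 to 5.63%) and 3.59% (2.80 to 4.53%) in the same order. Among those of 5 to 10 kb it met 15.4% (10.7 to 21.2%), 11% (8.38 to 14.2%) and 3.86% (2.22 to 6.19%). Below 1 kb the counts were only 6, 3 and 3. The share was higher for islands in no run than for runs of 5 or more on 19 of 22 autosomes and lower on 3. Distance to HT H3K4me3 moved along with it, with medians of 103.3, 112.8 and 150.7 kb, and 196.9 kb in runs of 10 or more. Its part in the result was not tested.

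**Figure D4:**
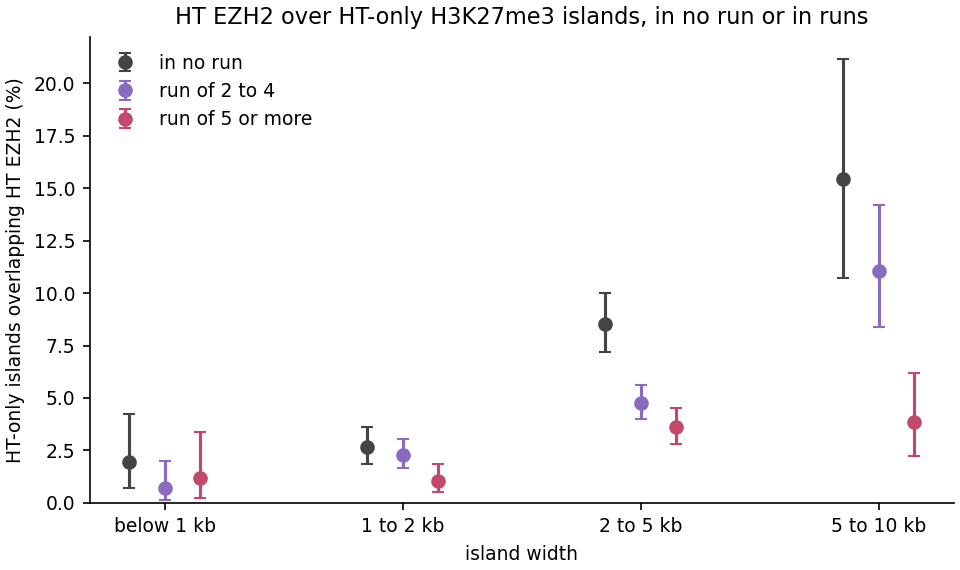
Share of HT-only islands that overlap HT EZH2 (percent) by width class, for islands in no run, in runs of 2 to 4 and in runs of 5 or more. Points are shares and bars exact 95% intervals. At 5 to 10 kb the share is 15.4% in no run, 11% in short runs and 3.86% in long runs.

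By number of islands, the largest run held 27 HT-only islands on chromosome 1 from 208060351 to 208419450, a span of 359.1 kb with 102.5 kb of HT H3K27me3. Its islands measured 600 to 8250 bp, and 1 of them met HT EZH2. SUDHL6 H3K27me3 was called between them in 3 islands of 7.95 kb in all, and H3K4me3 of neither line was called in the span. The next by number held 22 islands on chromosome 11 from 45307801 to 45635250, with 65.0 kb of HT H3K27me3, 3 SUDHL6 H3K27me3 islands of 8.40 kb in the gaps, and no EZH2 or H3K4me3 island of either line. Runs of 19 islands lay on chromosome 1 from 48283801 to 48517050, on chromosome 4 from 184903051 to 185307600 and on chromosome 20 from 1708651 to 2068050. HT H3K27me3 covered 56.7, 44.6 and 52.5 kb of these spans, against 7.20, 4.50 and 7.65 kb of SUDHL6 H3K27me3. HT EZH2 met 0, 0 and 2 of their HT-only islands.

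By autosome, HT-only islands were densest on chromosomes 20 (8.40 per Mb), 17 (7.39) and 1 (7.22), and sparsest on chromosomes 4 (1.24), 2 (2.40) and 13 (2.87). Their share of the narrow HT islands followed another order. It was highest on chromosomes 13 (87.8%), 8 (87.4%) and 5 (86.9%) and lowest on chromosomes 19 (60.7%), 17 (62.8%) and 22 (62.8%). Chromosome 17 thus had many HT-only islands per Mb and a small share, and chromosome 4 few islands and a share of 86.1%. Copy number was not measured.

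**Figure D5:**
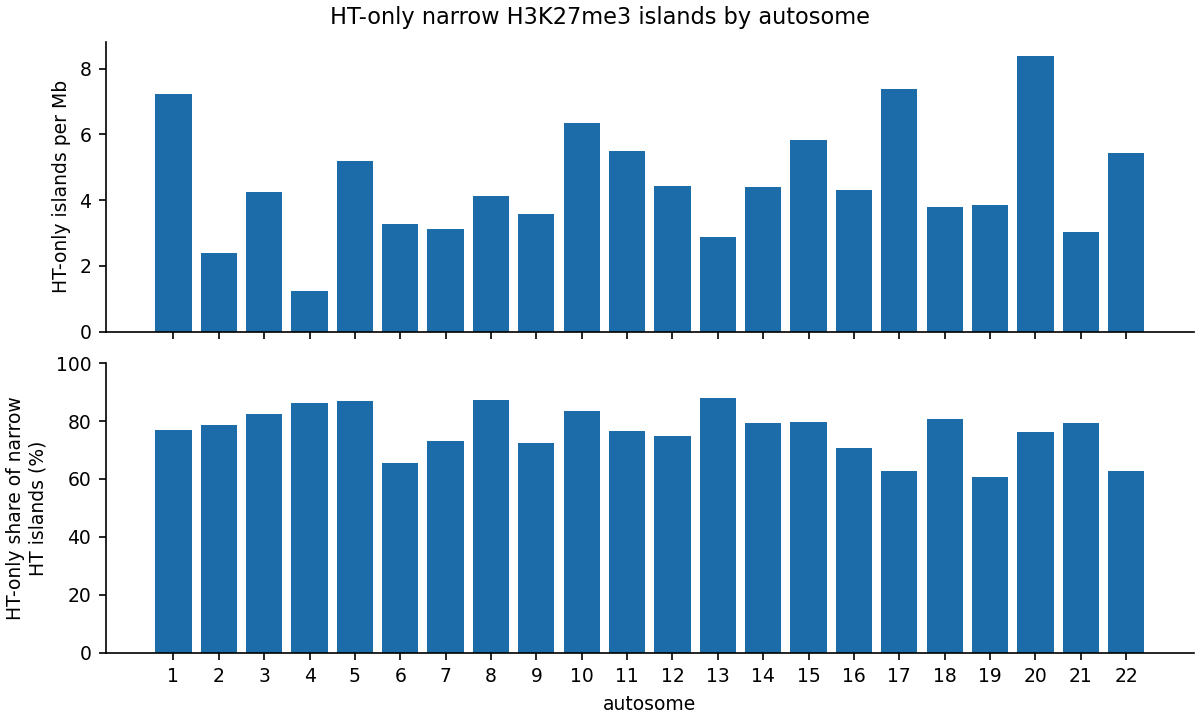
HT-only islands per Mb (top) and as a percent of the narrow HT H3K27me3 islands (bottom) on each autosome. Chromosome 20 has the most per Mb (8.40), and chromosome 13 the highest share (87.8%).

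The islands were spread over 284 of 300 windows of 10 Mb, with a median of 31 per full window (quartiles 12.3 and 64). The 10 fullest windows, 3.33% of all, held 1576 islands or 12.5%, and 59 windows (19.7%) held 50% of them. These windows were ranked by the count of HT-only islands itself. HT-only islands made up 68.5% to 97.9% of the narrow HT islands in the 10 windows. That range lies on both sides of their share on all autosomes, 76.6%. The fullest was 200 to 210 Mb of chromosome 1 with 243 HT-only of 321 narrow islands, 7 of them with HT EZH2. In this window HT H3K27me3 covered 1149 kb, SUDHL6 H3K27me3 464.7 kb, HT H3K4me3 106.4 kb and SUDHL6 H3K4me3 112.8 kb. Its widest HT-only island lay from 206941951 to 206950950, and HT EZH2 covered 85.0% of it. Next came 30 to 40 Mb of chromosome 1 (174 islands), 130 to 140 Mb of chromosome 5 (157), 60 to 70 Mb of chromosome 15 (150) and 70 to 80 Mb of chromosome 15 (146). Their widest HT-only islands began at 39248851, 134817151, 69984001 and 73193251, measured 8700, 9450, 8700 and 9000 bp, and met no HT EZH2. In these 4 windows HT EZH2 met 2, 3, 5 and 2 HT-only islands.

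The number of HT-only islands in a window went with the length of the other lists there to differing degrees. Across 278 full windows, as a description with no test, the number of HT-only islands went with the length of HT H3K4me3 (Spearman rho = 0.65, Pearson r = 0.45), of HT EZH2 (rho = 0.72, r = 0.56) and of SUDHL6 H3K27me3 (rho = 0.66, r = 0.39). The relation was weaker for SUDHL6 EZH2 (rho = 0.57, r = 0.29) and weakest for SUDHL6 H3K4me3 (rho = 0.43, r = 0.22). The rule bears on this order, since it removes islands that meet SUDHL6 H3K27me3 or SUDHL6 H3K4me3 from the count. All points come from the same 6 libraries.

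The share of narrow HT islands that were HT-only varied from 33.9% to 98.1% among the 119 full windows with at least 50 such islands, with a median of 81.3% (quartiles 69.3 and 88.3%). It was lowest at 30 to 40 Mb of chromosome 6 (60 of 177), with 597 kb of HT H3K27me3 against 1841 kb of SUDHL6 H3K27me3 in the window. At 20 to 30 Mb of chromosome 8 it was 97.9% (140 of 143), with 432.2 kb of HT H3K27me3 and 8.55 kb of SUDHL6 H3K27me3. Since the rule removes islands that meet SUDHL6 H3K27me3, this share falls where SUDHL6 has more of it.

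Chromosome ends held a smaller part of HT-only islands than of shared islands. The outer 10 Mb, 15.3% of autosome length, held 17.0% of all narrow HT islands and 13.5% (10.5 to 16.9%) of the islands over SUDHL6 H3K4me3 only. It held 14% (13.4 to 14.6%) of the HT-only islands and 28.8% (27.2 to 30.3%) of the shared islands. Since shared islands are those that meet SUDHL6 H3K27me3, this difference also depends on where that mark was called in SUDHL6, and the rule bears on it.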

How the data were processed

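The authors deposited 1 list of islands for each of 6 libraries (2 lines, 3 antibodies), so islands were called per library. The 2 input samples were not used here. Per the submitters' processing notes, the island caller was SICER and the genome build hg19. Its settings, read from the names of the deposited lists, were an FDR of 1E-7, a gap of 450 bp and a window of 150 bp. The sources used here do not give the aligner, the read filters, the control or the depth. Column 4 is the score deposited by the authors, of unstated meaning, and was used only within the HT H3K27me3 list, also divided by width.

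Members, overlaps (at least 1 bp), distances, runs and windows were computed from the lists, with positions counted from 1. An island belongs to the window that holds its centre. Autosome length is the last base of an island in any list. The steps were checked against direct counts on simulated islands. Members, classes and windows were chosen with earlier results of these data known. Regions were named by fixed ranks: the 5 widest, with ties by position (also among those with EZH2), the 5 highest and 3 lowest in score per kb, the 5 fullest windows with their widest member and the 5 runs with most members. The widest with EZH2 of both lines or with HT H3K4me3, the weighting by width and score, the classes of distance and of run length, shared islands without SUDHL6 H3K4me3, and windows with extreme shares were chosen after their values were seen. Gene positions on hg19 were not used here, so islands are not assigned to genes. Alternatives were an overlap of 50% of the island, the highest 50% of each list by score, a minimum width of 1 kb, joining of islands within 5 kb, a distance of at least 5 kb from SUDHL6 islands, no upper width limit, the outer 5 Mb, 20 windows of 5 Mb and, added after the data were seen, the highest 50% of the HT H3K27me3 list alone and runs with neighbours at most 20 or 100 kb apart, with short islands left out or with the highest 50% of every list. Computations ran in Python 3.11.15 with scipy 1.17.1 and numpy 2.4.6, and figures were drawn with matplotlib 3.10.9.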

Additional observations from a re-analysis of the deposited data

How the results depend on the processing

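The comparison of HT-only with shared islands kept its direction under the 6 settings planned for every result and the 1 added, for HT EZH2, SUDHL6 EZH2, HT H3K4me3, width, score per kb and distance to HT H3K4me3. The shared class was formed anew in each setting. Each setting applied the rule again, so the rule bears on the direction for width, SUDHL6 EZH2, HT H3K4me3 and distance to HT H3K4me3. No setting held width and score alike. Where that was done in the main setting, HT-only islands had the lower HT EZH2 share in 9 of 13 combinations and the higher in 4. At least 5 kb from SUDHL6 islands, it also took in islands less than 5 kb from SUDHL6 H3K27me3, 5102 in all. With an overlap of 50% of the island it held 2369. Values that moved beyond their interval, or counts beyond 1.5 times, follow. With the highest 50% of every list by score there were 6174 HT-only islands (75.7% of narrow islands), with a median width of 3750 bp and 20 score units per kb. They had HT EZH2 in 6.46%, SUDHL6 EZH2 in 1.21% and HT H3K4me3 in 0.292%, a median of 159.9 kb to HT H3K4me3, 15.3% in the outer 10 Mb and 16.8% in the 10 fullest windows. This setting also shortens the lists that could be met. With the highest 50% of the HT H3K27me3 list alone there were 5255 (64.4%), with 3750 bp, 19.7 per kb, HT EZH2 in 7.76%, SUDHL6 EZH2 in 1.69%, HT H3K4me3 in 0.913%, 107.7 kb and 16.1% in the fullest windows. With an overlap of 50% of the island, HT-only islands were 84.2% of narrow islands, with 2400 bp, HT H3K4me3 in 0.310%, 117.2 kb and 14.7% in the outer 10 Mb. At least 5 kb from SUDHL6 islands they were 64.3%, with SUDHL6 EZH2 in 0.604%, 130.2 kb and 12.5% in the outer 10 Mb. With islands within 5 kb joined the values were 78.0%, 2400 bp, 18.8 per kb and 11.1% in the fullest windows. With islands of at least 1 kb they were 2400 bp, 19.1 per kb, HT EZH2 in 4.66% and 126.2 kb. With no upper width limit HT-only islands were 75.9% of the autosomal islands. The outer 5 Mb held 6.55%, and the 20 fullest windows of 5 Mb held 14%. For runs, HT EZH2 met 5.03% of islands in no run and 3.25% of those in runs of 5 or more with neighbours at most 20 kb apart, 7.02% and 2.77% at 100 kb, and 8.63% and 4.16% with the highest 50% of every list. With islands of at least 1 kb the shares were 6.45% and 2.89%. The cause of these moves was not tested beyond the construction of each setting. Without replicate libraries, the share of HT-only islands that a second HT or SUDHL6 library would leave is not known.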
